A study of Mus musculus with 2 samples.

Results

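Potassium channel genes were examined in the accessible chromatin of inflammation-experienced regulatory T (Treg) cells. The members were the protein-coding genes whose symbol begins with Kcn and a further letter, which gave 94 of 21853 protein-coding mouse genes. Peaks of the IDR-thresholded list, the strictest of 3 deposited lists, were merged into 29415 accessible regions where they overlapped or touched. The irreproducible discovery rate (IDR) rates how well peaks are reproduced between a pair of ranked peak sets. Its global form, used here, estimates the share of irreproducible peaks among all those ranked at least as high. A region was counted for a gene if it overlapped the 1000 bp on either side of one of its protein-coding transcript starts (a promoter region), or if its summit lay nearest to such a start within 100 kb (an assigned region). By this rule 91 regions belonged to potassium channel genes, 19 at promoters and 72 assigned.

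The cells came from an adult male mouse, aged 6 months, that carried Foxp3CreERT2, an inducible Cre recombinase expressed from the Foxp3 gene of Treg cells, and the fluorescent Cre reporter Rosa26YFP. They were profiled by ATAC-seq, which reads out where a transposase can cut into open DNA, as 2 technical replicates of 1 biological replicate. The labels trace the primary cells back to hematopoietic cells of bone marrow. The inflammation the cells had met, their sort and any untreated group are not described in the labels, so there was 1 group and no comparison between conditions. The lists were taken to pool the libraries, since both samples name the same files, and none holds values labelled by library, so the values below are given without a replicate error and no test was made. Sequencing depth is unknown. Intervals are 95% exact binomial (Clopper-Pearson) intervals, which cover the counting of genes only, and genes are not replicates.

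Potassium channels let potassium leave the cell and thereby hold the membrane potential negative. In T cells this keeps up the electrical drive for calcium entry through the Orai channels, which Stim proteins open when the calcium store of the endoplasmic reticulum empties, and calcium in turn activates calcineurin and NFAT. The channels best known for this role are the voltage-gated Kv1.3, encoded by Kcna3, and the calcium-activated KCa3.1, encoded by Kcnn4, while most other members of the family are known from neurons, heart, kidney or smooth muscle. Expression was not measured here, and nearness to a transcript start does not show that a region acts on that gene.

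The sequence at the summits of the Kcna3 and Kcnn4 regions is shown first, since these genes encode the channels with the best known part in T cells. Bases lie on the plus strand of GRCm38 (mm10) and cover up to 50 bp on either side of the summit, with untranslated bases left out. Distances run from the summit to the nearest protein-coding start of the gene and are negative upstream. Capitals mark matches, on either strand, to the consensus letters of RUNX (TGTGGT), AP-1 (TGANTCA), forkhead (GTAAACA), TCF/LEF (CTTTGAA) or the ETS core without a CpG (AGGAAG). A match is a description of the letters and does not show that a factor was bound. Kcna3 was represented by its promoter and by 4 of its 8 assigned regions. Among the assigned regions not shown, those at −69767 bp and +2688 bp held none of these words.
Kcna3 region at −95846 bp (chr3:106940273-106940373): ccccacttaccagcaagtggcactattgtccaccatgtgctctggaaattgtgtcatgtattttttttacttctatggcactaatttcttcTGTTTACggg
Kcna3 region at −68486 bp (chr3:106967633-106967733): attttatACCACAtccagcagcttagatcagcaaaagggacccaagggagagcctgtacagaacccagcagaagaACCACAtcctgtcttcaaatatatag
Kcna3 promoter region at −28 bp (chr3:107036091-107036168): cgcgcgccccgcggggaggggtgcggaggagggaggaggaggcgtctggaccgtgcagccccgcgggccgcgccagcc
Kcna3 region at +2170 bp (chr3:107038289-107038389): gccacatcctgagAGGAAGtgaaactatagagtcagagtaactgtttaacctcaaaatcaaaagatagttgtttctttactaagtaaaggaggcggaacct
Kcna3 region at +26749 bp (chr3:107062868-107062968): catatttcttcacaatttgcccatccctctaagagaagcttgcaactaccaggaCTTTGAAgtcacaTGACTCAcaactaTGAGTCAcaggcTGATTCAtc

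The promoter summit of Kcna3 held none of these words. The assigned region at −68486 bp held a pair of RUNX matches, and the one at +26749 bp held 3 AP-1 matches side by side with a TCF/LEF match. AP-1 matches lay within 50 bp of the summit in 6 of the 72 assigned regions of potassium channel genes (8.33%) and in 8.79% of all regions away from promoters. Kcnn4 was represented by its promoter and 2 of its 4 assigned regions. Its region at +3432 bp, not shown, held none of the words marked here.
Kcnn4 region at −3373 bp (chr7:24366840-24366940): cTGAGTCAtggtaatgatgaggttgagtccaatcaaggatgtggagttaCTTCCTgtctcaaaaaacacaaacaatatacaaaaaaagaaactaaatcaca
Kcnn4 promoter region at −332 bp (chr7:24369881-24369981): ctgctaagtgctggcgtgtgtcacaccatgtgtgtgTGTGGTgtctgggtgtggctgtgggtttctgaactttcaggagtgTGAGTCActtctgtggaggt
Kcnn4 region at +8250 bp (chr7:24378538-24378638): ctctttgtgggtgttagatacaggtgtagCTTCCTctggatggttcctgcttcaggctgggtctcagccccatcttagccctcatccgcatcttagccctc

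Both upstream Kcnn4 regions held an AP-1 match. The promoter summit of Kcnn4 was the only 1 of the 19 promoter regions with such a match, against 2.38% of the 11184 promoter regions of all genes. Further sequences come from 4 of the 10 highest assigned regions, to show the range of words at distal summits. In these the capitals also mark CTCF (CCANNAGNG), and the AP-1 match and the second RUNX match of Kcnj15 share a base.
Kcng3 region at −22912 bp (chr17:83654757-83654857): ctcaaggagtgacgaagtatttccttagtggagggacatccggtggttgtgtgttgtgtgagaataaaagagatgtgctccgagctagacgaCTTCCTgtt
Kcnj15 region at −68253 bp (chr16:95189255-95189355): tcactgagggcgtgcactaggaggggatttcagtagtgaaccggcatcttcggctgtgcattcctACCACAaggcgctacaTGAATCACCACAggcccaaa
Kcnh2 region at +26169 bp (chr5:24303372-24303472): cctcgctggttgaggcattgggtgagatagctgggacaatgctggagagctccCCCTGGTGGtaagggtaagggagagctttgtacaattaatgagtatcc
Kcnj16 region at −3626 bp (chr11:110993811-110993911): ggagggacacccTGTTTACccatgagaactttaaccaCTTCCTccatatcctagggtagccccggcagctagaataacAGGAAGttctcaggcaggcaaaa

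Few potassium channel genes had an accessible promoter. A promoter region was found at 17 of the 94 genes (18.1%, interval 10.9 to 27.4%), while 49.7% of all protein-coding genes had one. In the wider pseudoreplicated list the count was 26 (27.7%, 18.9 to 37.8%), beside 55.3% of all genes. In the ranked list, which holds every candidate, it was also 26 (27.7%), beside 55.3%. Counting assigned regions too, 37 genes (39.4%, 29.4 to 50%) had at least 1 region, beside 59.1% of all genes. Genes with a region but none at the promoter made up 20 of the 94 (21.3%, 13.5 to 30.9%) and 9.35% of all genes. Taken over the genes without a promoter region alone, these were 20 of 77 members (26.0%) and 18.6% of all 10992 such genes. Among the upper 50% of regions by fold, a promoter region was left at 6.38% of members and 35.4% of all genes. In bulk material a region open in few cells and one weakly open in many cannot be told apart.

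CpG-rich promoters are accessible in most cell types, so the counts were also taken within strata of promoter CpG content, the ratio of observed to expected CpG within 500 bp of the annotated 5′ end. The potassium channel genes had a median ratio of 0.492 against 0.552 for all genes. In the upper 3 deciles, 5 of 20 members had a promoter region (25%, 8.66 to 49.1%), beside 83.6% of all genes there. The middle 4 deciles gave 11 of 57 (19.3%, 10 to 31.9%), beside 52.8%. In the lower 3 deciles the members numbered 1 of 17 (5.88%, 0.149 to 28.7%), beside 11.6%, and here the interval took in the share of all genes. The shortfall against all genes was thus seen in the upper and middle strata. The 15 CpG-rich members without a promoter region included Kcnc1, Kcnc4, Kcnd2, Kcnd3, Kcnh1, Kcnh2, Kcnj12, Kcnj4, Kcnk12, Kcnk15, Kcnk3, Kcnk6 and Kcnk9. With CpG content taken at the best of a gene's starts, an alternative chosen after seeing the data, the upper stratum gave 7 of 27 (25.9%), beside 83.5%.

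**Figure D1:**
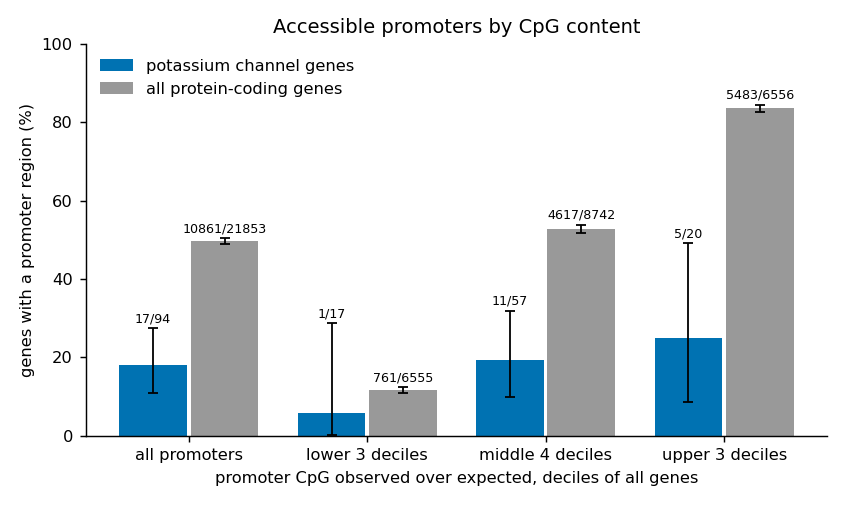
Percent of genes with a promoter region in the IDR-thresholded list (vertical axis) for potassium channel genes (blue) and all protein-coding genes (grey), in all and by strata of promoter CpG ratio; bars start at 0, error bars are 95% exact binomial intervals, and the counts stand above them. Potassium channel genes lie at 25% in the upper deciles, where all genes lie at 83.6%.

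The neighbouring machinery of calcium entry gave a different count. Of 23 partner genes listed for T cell calcium and membrane transport, 22 (95.7%, 78.1 to 99.9%) had a promoter region, and all 23 had at least 1 region. These genes were picked by name, with earlier results of these data known. Their share therefore describes this list only, and its contrast with a whole gene family was not tested. Their median CpG ratio was 0.751, and 12 of the 23 were in the upper stratum. Among the upper 50% of regions by fold their share was 43.5%, beside 35.4% of all genes. Promoter fold enrichment over background was 12.2 at Orai1, the pore of the store-operated channel, 16.5 at Stim1, its calcium sensor, and 22.4 at Itpr1, an inositol trisphosphate receptor of the endoplasmic reticulum, whose locus held 18 regions. The exception was P2rx7, an ATP-gated channel, whose promoter was found only in the pseudoreplicated list. Other channel families were taken by gene symbol. A promoter region was present at 1 of 26 calcium channel genes with symbols beginning Cacna, Cacnb or Cacng (3.85%). Sodium channel genes had one at 2 of 14 (14.3%) and TRP channel genes at 5 of 24 (20.8%). Of those 5, 3 (Trpm4, Trpm7 and Trpv2) are also among the partner genes. Chloride channel genes of the Clcn family reached 6 of 9 (66.7%). Kctd genes, which share a tetramerization domain with voltage-gated potassium channels, reached 15 of 22 (68.2%). As a check of the label, all 4 Treg cell marker promoters (Foxp3, Il2ra, Ctla4 and Ikzf2) and 4 of 5 T cell marker promoters had a region, while Cd4 had its promoter only in the pseudoreplicated list. None of the 4 myeloid and none of the 4 neuron markers had any region. Of the 4 B cell markers, Pax5 had a promoter region with a fold enrichment of 15.4, and the others, Ms4a1 and Cd79a among them, had no region. The part of B cells in the results was not tested.

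The fold enrichment and −log10 p given here are the values of the authors' peak caller, and a region takes the fold of its highest peak. Over the 19 promoter regions of potassium channel genes the median fold enrichment was 11.6 (interquartile range 9.21 to 13.5). All promoter regions had a median of 15.2 (10.6 to 19.7), and 3 of the 19 lay above it. The member regions were also narrower, with a median width of 673 bp against 900 bp. Only 1 of the 19 overlapped the promoter of another gene as well, whereas 12.1% of all promoter regions did so.

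**Figure D2:**
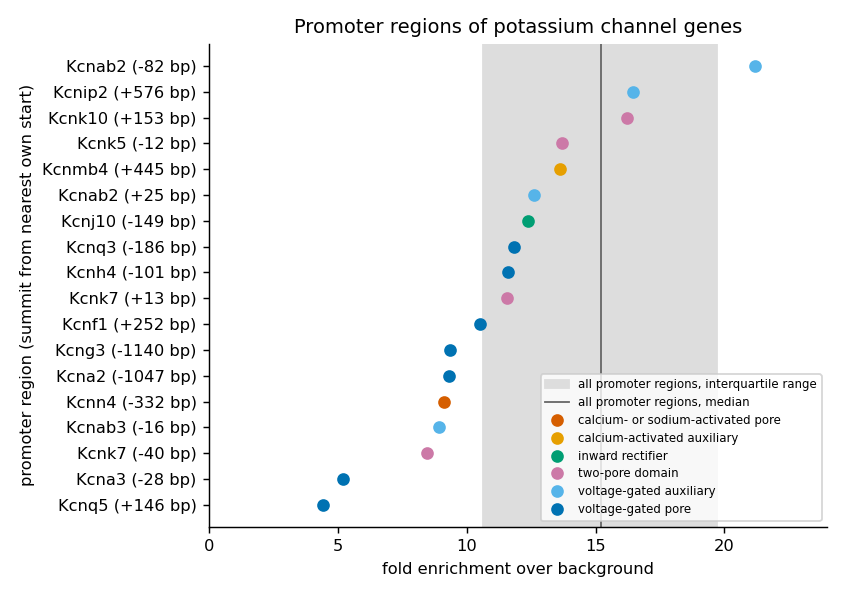
Fold enrichment (horizontal axis, linear) of 18 of the 19 promoter regions of potassium channel genes, coloured by channel class and labelled with the distance from summit to start; the grey band and line are the interquartile range and median of all promoter regions. The regions run from 4.42 at Kcnq5 to 21.2 at Kcnab2, and 3 lie to the right of the line.

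Voltage-gated pore-forming subunits were the largest class, with 8 of 40 promoters accessible, 16 genes with any region and 42 regions. The promoter region of Kcna3 (ENSMUSG00000047959.4, plus strand, chr3:107036169-107038070) was low, with a fold enrichment of 5.20, which is above only 3.65% of all promoter regions, and a −log10 p of 53.3. Its summit lay at −28 bp. Kcna2, which encodes the axonal channel Kv1.2, had a region of fold 9.30 whose summit at −1047 bp fell just outside the promoter window. The same held for Kcng3, an electrically silent subunit that modifies other voltage-gated channels, with a fold of 9.35 and a summit at −1140 bp. Both genes are counted because the edge of the region reached the window.

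Further voltage-gated promoters came from genes known from neurons. Kcnf1, another silent subunit, had a fold of 10.5. Kcnh4, of the ether-à-go-go-like family, had 11.6. The genes Kcnq3 and Kcnq5 encode subunits of the M current, which damps repetitive firing. Their folds were 11.9 and 4.42, and the Kcnq5 region was the lowest of the 19, although it spanned 1619 bp and held 6 summits. A further 8 genes of this class had assigned regions only, among them Kcna10, Kcna6, Kcnc1, Kcnc4, Kcnh2, Kcnh8 and Kcns2. The 24 without a region included all 3 genes of the transient A-type Kv4 family (Kcnd1, Kcnd2 and Kcnd3) and Kcnq1, the cardiac and epithelial channel.

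Auxiliary subunits of voltage-gated channels had 3 of 13 promoters accessible. Kcnab2, a cytoplasmic beta subunit of Kv1 channels, had the highest promoter region of the family, with a fold of 21.2 and a −log10 p of 495. That region also overlapped the promoter of Nphp4, a ciliary gene, so its height cannot be given to Kcnab2 alone. A separate promoter region at an inner Kcnab2 start, which overlapped no other promoter, had a fold of 12.6. The related beta subunit gene Kcnab3 had a fold of 8.94. Kcnip2, whose calcium-binding product accompanies Kv4 channels, had a fold of 16.5, reaching 2 of its 9 starts, although no Kv4 gene had a region in the IDR-thresholded list. None of the 5 Kcne genes, which encode single-pass beta subunits, had a region (Kcne1, Kcne1l, Kcne2, Kcne3 and Kcne4).

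Among the 8 pore-forming genes activated by calcium or sodium, Kcnn4 was the only one with a promoter region. Kcnn4 (ENSMUSG00000054342.8, plus strand, chr7:24370263-24386690) had a fold enrichment of 9.13 with a summit at −332 bp. By fold it exceeded 17.9% of all promoter regions, while by its −log10 p of 212 it exceeded 59.1% of them. Kcnn1 and Kcnn3, genes of small-conductance channels, and Kcnt1, a sodium-activated channel gene, had assigned regions only. Kcnma1, the pore of the large-conductance BK channel, had no region within the 625 kb of sequence nearest to its starts. Of the BK auxiliary genes, Kcnmb4 had a promoter region of fold 13.6 and Kcnmb1 had 4 assigned regions, all inside the gene Kcnip1.

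Inward rectifiers had 1 of 15 promoters accessible, that of Kcnj10 with a fold of 12.4. Kcnj10 encodes Kir4.1, known from glia and kidney. In the authors' deposited table of ranked peaks, its −log10 p was 21.6 in both sets. Assigned regions without a promoter region were found at Kcnj1, Kcnj15, Kcnj16 and Kcnj9.

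Two-pore-domain channels, which carry background potassium current, had 3 of 14 promoters accessible. Kcnk5, encoding the pH-sensitive TASK-2, had a fold of 13.7 with a summit at −12 bp and a second region at +7764 bp with a fold of 15.3. Kcnk10, encoding the stretch-sensitive TREK-2, had 16.2. Kcnk7, whose product gives no known current by itself, had a pair of promoter regions of fold 11.6 and 8.45 at its 2 starts. Of the 6 potassium channel genes listed as described in T cells, Kcna3, Kcnn4 and Kcnk5 had a promoter region, and Kcnk3, Kcnk9 and Kcnk18 had no region of either kind. This share of 50% (11.8 to 88.2%) is near the 49.7% of all genes.

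A further 9 genes had their promoter in the pseudoreplicated list but not in the IDR-thresholded one (9.57% of members, beside 5.58% of all genes). The highest were Kcnh3, of the ether-à-go-go-like family, with a fold of 10.2, Kcnk13, a two-pore-domain gene, with 9.35 and Kcna7 with 7.58. Their IDR in the authors' deposited table was 0.193, 0.135 and 0.0676. Kcnh2, which encodes the cardiac hERG channel, had a fold of 6.03, Kcnk6 had 5.58, and Kcnj2, which encodes Kir2.1, had 5.05. Kcnc1 (3.92), Kcnh8 (2.99) and Kcnd1 (2.78) were the lowest, and these 3 shared an IDR of 0.357 with Kcnj2 in the authors' deposited table. The −log10 p of the Kcnh3 promoter in the authors' deposited table was 26.6 in the first ranked set and 10.5 in the second. For Kcnh2 the authors' deposited table gave 11.7 and 26.7, so neither set was the higher one throughout. No promoter was found in the ranked list alone, and 68 genes (72.3%, beside 44.7% of all genes) had none in any list.

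Regions gathered at few of the genes. Kcna3 held 9, Kcnh2 and Kcnj15 held 6 each, Kcnn4 and Kcnrg 5 each, and Kcna2, Kcng3, Kcnmb1 and Kcnmb4 4 each. These 9 genes held 47 of the 91 regions, while 57 genes held none (60.6% of members, beside 40.9% of all genes) and 14 held 1. How far regions gather at few genes was not counted over all genes. The number at Kcna3 equalled or exceeded that of 99.0% of all genes, and the number at Kcnn4 that of 96.0%. The sequence nearest to their starts was 132 kb at Kcna3 and 25.2 kb at Kcnn4, against a median of 46.4 kb for all genes. Genes with 5 or more regions made up 5.32% of members and 5.86% of all genes, which is near the background.

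**Figure D3:**
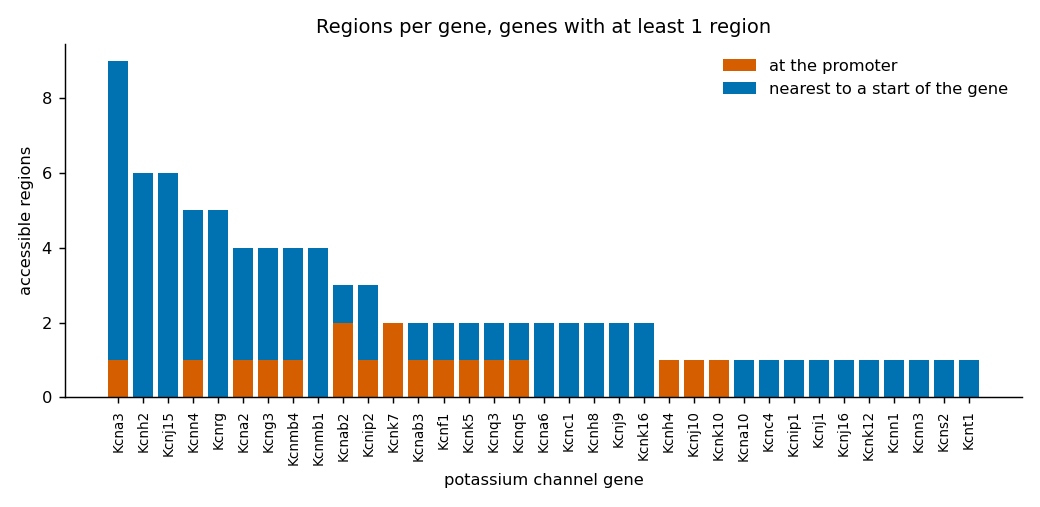
Number of accessible regions (vertical axis, from 0) for 35 of the 37 potassium channel genes with at least 1, split into promoter regions (orange) and regions assigned by nearest start (blue). Kcna3 leads with 9 regions, and Kcnh2, Kcnj15, Kcnrg and Kcnmb1 have several regions but none at the promoter.

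At the Kcna3 locus the promoter was the lowest but one of 9 regions. The upstream regions had folds of 20.0 at −95846 bp, 10.5 at −69767 bp, 11.7 at −68486 bp and 16.7 at −61584 bp. Downstream they were 10.6 at +2170 bp, just past the end of the gene, 4.06 at +2688 bp, 8.27 at +25459 bp and 16.5 at +26749 bp. Thus 7 of the 8 assigned regions stood higher than the promoter. The +2170 bp region had the greatest −log10 p of the locus, at 197. All 8 lay inside the long noncoding gene Gm27008, as did the 3 assigned regions of the neighbouring Kcna2. These regions thus lie within another annotated gene and are counted here by nearness to a coding start alone. The summit of the Kcna3 promoter region lay inside Gm27008 as well. Kcna10, the third gene of the cluster, had 1 region, inside its own body, with a fold of 17.4.

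The Kcnn4 locus was compact and uniformly low. Its 25.2 kb of nearest sequence held 5 regions, with folds of 4.14 at −3373 bp, 9.13 at the promoter, 5.21 at +3432 bp, 6.40 at +8250 bp and 8.11 at +9726 bp. The promoter was the highest of the 5, whereas 7 regions stood above that of Kcna3. The 3 downstream regions lay in introns of Kcnn4 itself. Their −log10 p values ran from 82.8 to 124, so the low folds came with −log10 p values above those of 59.5% to 75.2% of all regions away from promoters.

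**Figure D4:**
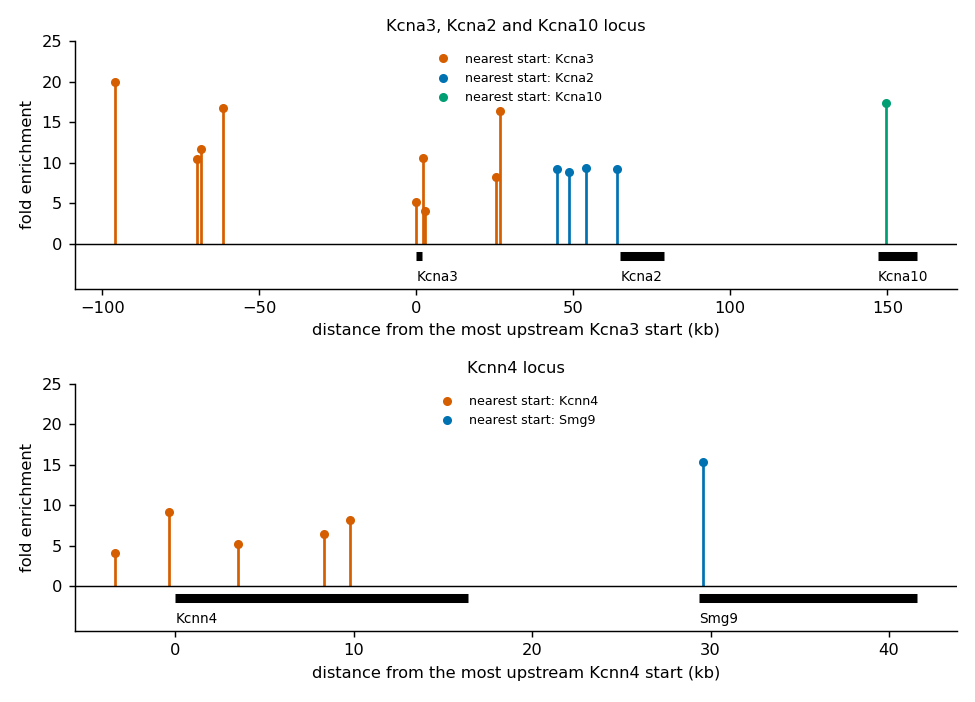
Fold enrichment (vertical axis) of each region against the distance of its summit from the most upstream protein-coding start (horizontal axis, kb) at the Kcna3 cluster and at Kcnn4; colours give the gene of the nearest start and black bars the gene bodies, the last of which (Smg9) is cut at the edge of the plot. At Kcna3 distal regions reach a fold of 20.0 over a promoter at 5.20, and no region nearest to Kcnn4 exceeds 9.13, while the neighbouring Smg9 region reaches 15.3.

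The 72 assigned regions had a median fold enrichment of 11.3 (interquartile range 9.36 to 15.4), close to the 12.1 (8.80 to 16.0) of all regions away from promoters, and 32 of them lay above that median. Unlike the promoter regions, they therefore did not stand low. The highest was the Kcng3 region at −22912 bp (chr17:83654526-83655198), with a fold of 23.4 and a −log10 p of 333. It was followed by 21.9 at −68253 bp from Kcnj15, which encodes the inward rectifier Kir4.2, 20.0 at −95846 bp from Kcna3 and 19.8 at +51110 bp within Kcnmb4. Kcnh2 contributed 3 of the 10 highest, with 19.7 at +26169 bp, 18.2 at +62809 bp and 17.2 at +68312 bp. The others were Kcnh8 with 19.7 at −42570 bp, Kcnj16, which encodes Kir5.1, with 18.8 at −3626 bp, and Kcna10 with 17.4 at +2749 bp.

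The position of the assigned regions limits how far they can be tied to a channel gene. Of the 72, 21 lay in the body of the gene they were assigned to, 9 in the body of another protein-coding gene, 19 in a noncoding gene only and 23 outside any gene. The 9 included 4 Kcnmb1 regions within Kcnip1, a Kcnj15 region within Erg and a Kcnj1 region within Fli1. Erg and Fli1 encode ETS-family transcription factors of blood cells. The remaining 3 lay within Armh3 (nearest Kcnip2), Cnot2 (Kcnmb4) and Stk3 (Kcns2). At Kcnrg, named as a regulator of potassium channels, 2 of the 5 regions lay within the noncoding gene Dleu2, and all 5 lay more than 40 kb from its start. The median distance to the start was 21.5 kb, against 17.3 kb for all such regions, and 37.5% lay within 10 kb, against 32.0%.

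The rule also leaves out regions inside a channel gene that are nearest to another gene or to none within 100 kb. Kcnq5 held 7 regions in its body, of which 6 were left out in this way. Kcnip1 likewise held 7 with 6 left out, 4 of these being the Kcnmb1 regions above. Kcnq1 held 2, both left out. A count of 0, as at Kcnq1, therefore does not mean that the gene body held no accessible site.

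The regions of the members were also counted per length of sequence. The sequence nearest to the starts of a member, within 100 kb, had a median of 103 kb, against 46.4 kb for all genes. The members held 0.750 regions per 100 kb of it, against 1.80 for all genes and 3.80 for the partner genes. With each region counted only for the gene of its nearest start, these were 0.750 for members and 1.71 for all genes. Promoter regions are included, so the lower share of members with a promoter region is part of these values. Of 21 members with over 200 kb, 17 had no region, whereas 54.9% of the 1627 genes of all kinds with over 200 kb had none. This length grows with the number and spread of a gene's own starts, and 7 of the 21 stood at the most that a lone start can have. The longest without a region were Kcnip4 (800 kb), Kcnma1 (625 kb), Kcnn2 (495 kb) and Kcnmb2 (400 kb).

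Sequence words at the summits of the promoter regions were few. The SP/KLF word GGGCGG was found within 50 bp of the summit in 3 of 19 regions (15.8%), at Kcnj10, Kcnk5 and Kcnq3, beside 41.7% of all promoter regions. The CpG-containing ETS word CCGGAA was in 0 of 19, beside 18.4%. RUNX was in 2 of 19 (10.5%), at Kcnn4 and Kcnip2, beside 5.34%. The word CAGCACC, part of the RE1 site of the neuronal gene repressor REST, was in 2 of 19 (10.5%), at Kcnk7 and Kcnq5, beside 2.67%. The other RE1 word searched, GGACAG, was in 1 of 19 (5.26%), beside 6.04%. These counts of 0 to 3 regions give little precision. The words given here were picked out of 17 fixed words searched. The shares were not matched for promoter CpG content, although GGGCGG and CCGGAA contain a CpG, and no difference was tested.

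At distal summits the shares of words were set beside those in all regions away from promoters. RUNX was in 15 of 72 (20.8%, beside 18.8%), CTCF in 9 (12.5%, beside 13.6%), NFAT (GGAAAA) in 3 (4.17%, beside 6.38%) and AGGAAG in 28 (38.9%, beside 32.7%). The AGGAAG word was added after the sequences had been seen. The GATA word AGATAA was in 0 of 72, beside 4.61%. The forkhead word was in 4 (5.56%, beside 1.76%), at Kcna3, Kcnc1, Kcnip2 and Kcnj16, and 2 of these are shown above. SP/KLF was in 9 (12.5%, beside 7.21%). The GATA, forkhead and SP/KLF words were picked out of 17 fixed words searched. Counts this small give little precision, and no difference from all regions was tested.

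The authors' deposited table of ranked peaks gives a −log10 p in each of 2 sets, and it is not stated whether a set stands for a library or for a split of the pooled data. In the authors' deposited table the values of 88 of the 91 regions of potassium channel genes (96.7%) lay within 2-fold of each other, as they did for 98.7% of all regions. All these regions are from the IDR-thresholded list, which keeps peaks that rank alike in a pair of sets. Their closeness thus follows at least in part from that selection and is no separate measure of reproducibility. In the authors' deposited table the exceptions were the Kcnh4 promoter (19.2 and 38.9), the region at +2749 bp in Kcna10 (21.6 and 45.4) and the region at −10942 bp from Kcnq3 (22.4 and 45.8), each higher in the second set. The Kcna3 promoter had 28.1 and 27.1 in the authors' deposited table, and the Kcnn4 promoter had 77.4 and 133.

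**Figure D5:**
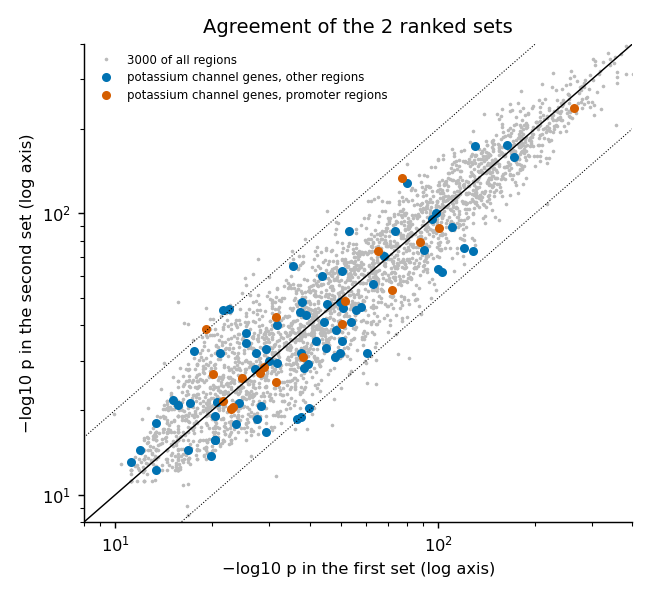
The −log10 p of each region in the first (horizontal, log axis) and second (vertical, log axis) ranked set, for promoter (orange) and other (blue) regions of potassium channel genes and for 3000 of all regions (grey); the solid line marks equal values and the dotted lines a 2-fold difference. Of the 91 regions, 88 lie between the dotted lines. All regions drawn had been selected by IDR, which favours agreement between sets.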

How the data were processed

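ATAC-seq libraries from Treg cells were used as 3 deposited lists of peaks on mm10. Per the deposited text files, the lists derive from 1 alignment, and the same files are named for both samples, so the lists were taken to pool the libraries. Not given in the sources used here were the aligner, peak caller, filters, Tn5 shift and IDR threshold. The authors deposited for each peak a score up to 1000 (lowest in the IDR-thresholded list: 540), a fold enrichment over an unstated background, and a −log10 p. The ranked list adds a −log10 global IDR and a −log10 p per set. Units were taken from column order and values. If the background was local, fold and width depend on the surroundings of a peak.

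Overlapping or touching peaks (58138 in the IDR-thresholded list) were merged, and the peak of greatest fold gave the fold and summit. The genes are those with a protein-coding transcript on the 21 chromosomes of the lists in GENCODE M21. The members and gene lists were chosen with earlier results of these data known. Values are given for members with a promoter region, those described in T cells, the 10 with most regions, the 10 highest assigned regions and members with a promoter in a wider list only. A few genes are counted but not reported here by name or drawn. Motifs were searched in 101 bp around summits. Alternatives changed the list, window, starts, distance cap, merging and stringency. Interval operations were tested on made-up intervals. Python 3.11.15, pandas 2.3.3, scipy 1.17.1, pysam 0.24.0 and matplotlib 3.10.9 were used.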

Additional observations from a re-analysis of the deposited data

How the results depend on the processing

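Leaving out a library was not run, since no list holds values labelled by library, and no paired analysis was possible because there was 1 group. In the pseudoreplicated list the share of potassium channel genes with a promoter region was 27.7%, that of all genes 55.3% and that of the partner genes 100%, with 59 members holding a region and 190 regions. In the upper 50% of regions by fold these values were 6.38%, 35.4%, 43.5%, 21 and 34. In that subset Kcna3 and Kcnn4 lost their promoter regions. For all genes the share was 48.8% with a window of 500 bp, 50.9% with 2000 bp and 46.7% with gene 5′ ends only, and for partner genes it was 100% with 2000 bp. Counting single summits gave 154 regions for the members. In the settings that also report all genes, the share of members with a promoter region was below that of all genes. Under the alternatives, genes with any region and their regions were counted for the members only. Those counts therefore have no background beside them, and whether the contrast of 39.4% with 59.1% holds there was not tested. Kcna2 and Kcng3 lost their promoter call with a window of 500 bp or when the summit had to lie inside the window, Kcnip2 with gene 5′ ends only, and Kcnh8 gained one with 2000 bp. A cap of 50 kb left 70 regions at 33 members, and leaving out regions inside other coding genes, an alternative chosen after seeing the data, left 81. The promoter folds of the 17 members were the same in the pseudoreplicated list, which carries the same peak values, so this says nothing about stability. Depth is unknown, so a promoter without a region was not detectable in these lists rather than shown closed.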
